A study of Mus musculus with 2 samples.

Results

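Heat shock and chaperone genes were described in a map of open chromatin from mouse brain. The group comprised 80 autosomal protein-coding genes, of 20807 in GENCODE M21, chosen by symbol alone: Hspa, Hspb, Hspd, Hspe or Hsph with a number, Hsp90, Dnaja, Dnajb or Dnajc with a number, Hsf1, Hsf2 and Bag1 to Bag6. The map was made by DNase-seq, in which the enzyme DNase I cuts accessible DNA and the cut ends are sequenced. The tissue was the right cerebral cortex of female adult B6CASTF1/J mice aged 18 to 20 months, a hybrid of C57BL/6J with CAST/EiJ. There were 2 biological replicates of this single untreated group, so no contrast between conditions was possible and no test was run. Both replicates carry the same donor identifier in the labels, and the sources used here do not say whether they came from separate animals.

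Chaperones bind unfolded or partly folded proteins and keep them from aggregating. HSP70 proteins (Hspa genes) cycle between ATP-bound and ADP-bound states. J proteins (Dnaj genes) deliver clients and start ATP hydrolysis, and BAG and HSP110 proteins exchange the nucleotide. HSP90 completes the folding of kinases and receptors, HSP60 and HSP10 form the mitochondrial folding chamber, and small HSPs (Hspb genes) hold unfolded clients without ATP. When misfolded protein builds up in the cytosol, HSF1 binds heat shock elements, which are inverted repeats of the block GAA. Stress in the endoplasmic reticulum (ER) acts on its own chaperones through the ER stress element. In neurons, chaperones also serve synaptic vesicles and the uncoating of clathrin.

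Of the 80 members, 69 (86.2%) had an accessible region, or peak, at a promoter in both replicates, against 59.1% of all autosomal protein-coding genes. Promoters here reach 500 bp to each side of every start site in the annotation. By mean log2 value over the replicates the strongest members were Hspa8, Hspa5 and Dnajb9, and the inducible small HSP gene Hspb1 had no promoter peak in either replicate. An exact heat shock element of 3 blocks (GAA, TTC and GAA, or TTC, GAA and TTC, with any 2 bases between blocks, on either strand) lay in a promoter peak of both replicates in 6 members (7.5%), against 0.192% of all genes.

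The 6 members were Hspa8, Hsp90aa1, Hspd1, Hspe1, Dnaja1 and Dnajb6. Their elements are printed from the reference genome GRCm38.p6, along the strand of the gene, because that count rests on them. Hspd1 and Hspe1 share 1 stretch. Hsph1 is added because its element lay in a peak of replicate 1 alone. Capitals mark the blocks and the bases between them.
Hspa8 (chr9:40801054-40801083, plus strand): ggcgagcgtGAAAGTTCCAGAAcgccgcgg
Hsp90aa1 (chr12:110696366-110696439, minus strand): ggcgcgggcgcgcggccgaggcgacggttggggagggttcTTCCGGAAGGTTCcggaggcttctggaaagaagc
Hspd1 (chr1:55088053-55088082, minus strand): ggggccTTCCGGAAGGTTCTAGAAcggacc
Dnaja1 (chr4:40722525-40722554, plus strand): ggccgggcgGAACTTTCCAGAAcgctcggt
Dnajb6 (chr5:29735843-29735872, plus strand): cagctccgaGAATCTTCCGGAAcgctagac
Hsph1 (chr5:149636279-149636308, minus strand): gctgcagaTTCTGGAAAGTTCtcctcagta
In the Hspd1 stretch the capitals cover a pair of overlapping matches.

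Facts of the libraries bear on all values given here. The deposited value of a peak is a signal whose normalization the sources used here do not give. All values of a library were whole multiples of 1 step (within 0.05 of a step). If each step is 1 read on an RPM scale, the libraries held 201 M reads in replicate 1 and 112 M in replicate 2, and read counts given here are inferred in that way. Values were higher in replicate 2 at the median promoter, with a difference of -0.50 on the log2 scale (replicate 1 minus replicate 2; SD across genes 0.35) over all genes open at a promoter in both. Replicates are therefore given side by side, and an SD between them includes this shift. The tissue label was checked on marker genes. All 6 neuronal markers had promoter peaks in both replicates, with values of 1.21 to 3.77 in replicate 1 and 0.972 to 3.95 in replicate 2. Of 4 hepatocyte markers none had one, and 1 of 5 microglial markers, 3 of 5 astrocyte markers, 3 of 5 oligodendrocyte markers and 2 of 4 endothelial markers did. In a mixed tissue, fewer cells with an open promoter and a less open promoter per cell cannot be told apart.

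**Figure D1:**
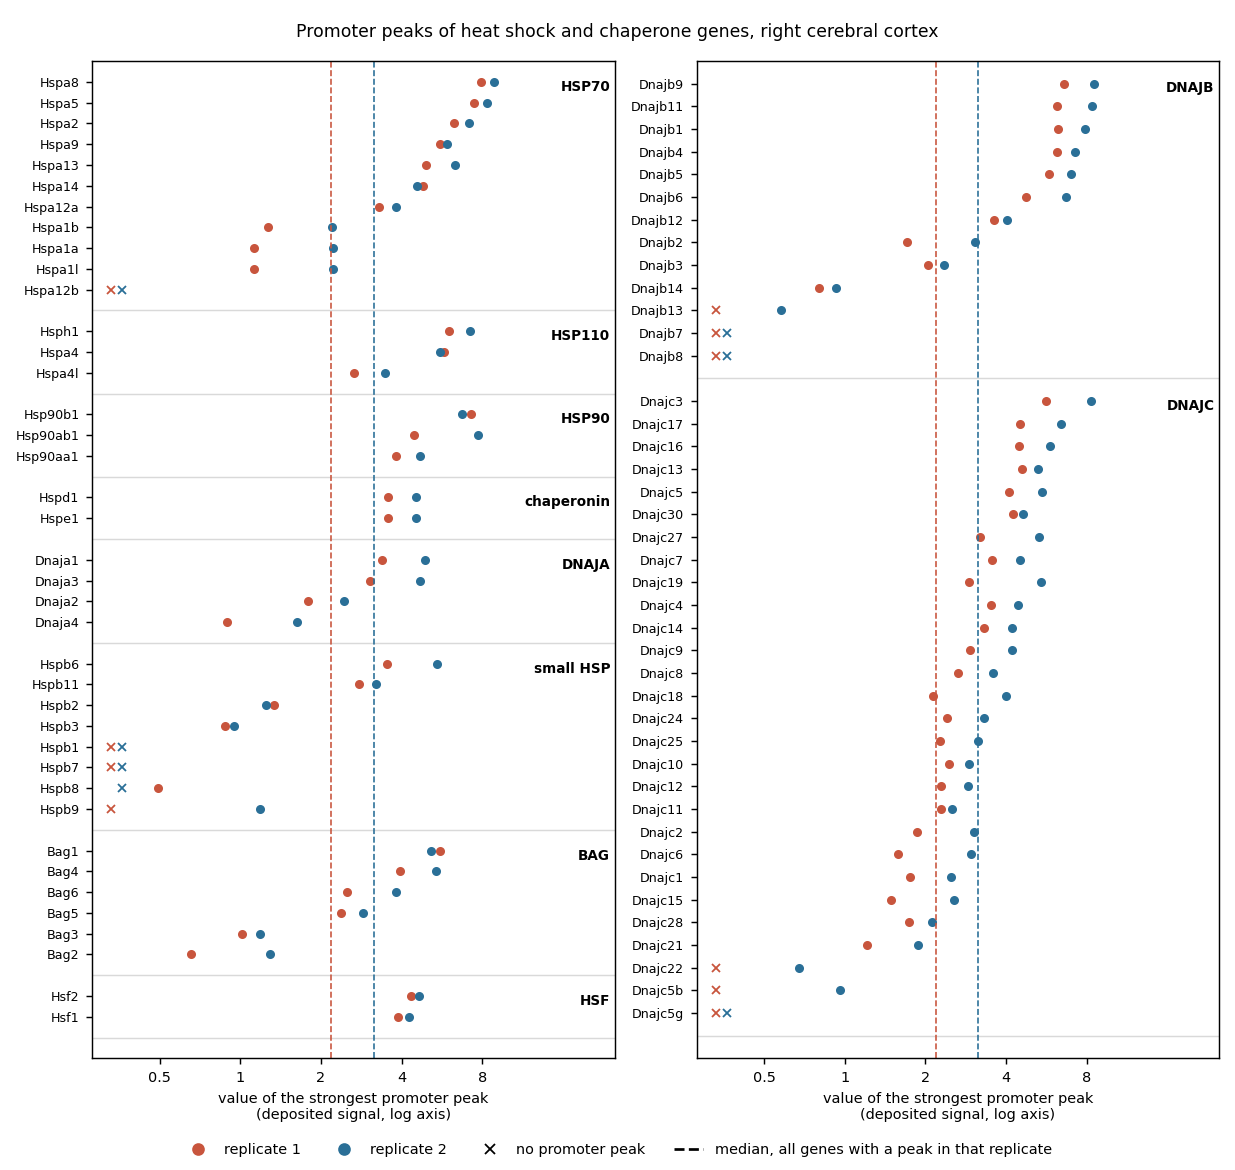
Value of the strongest promoter peak (x axis, deposited signal, log scale) for each of the 80 members, grouped by family, in replicate 1 and replicate 2; crosses mark members with no promoter peak. Dashed lines are the medians over all genes with a peak in that replicate, 2.18 in replicate 1 and 3.16 in replicate 2, and most HSP70, HSP110, HSP90 and DNAJB genes lie to their right.

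Among the 69 members open in both replicates, the median value was 3.30 in replicate 1 and 4.44 in replicate 2, against 2.24 and 3.28 over all 12289 such genes. The median member lay at percentile 73.8 of those genes by mean log2 value. The top 25% of genes held 30 of the 69 members (43.5%) and the top 10% held 18 (26.1%), while the lowest 25% held 9 (13%). Member promoters were also richer in CpG, with a median observed to expected ratio of 0.591 against 0.435 over all genes. Among genes with a ratio of 0.6 or more, 36 of 37 members (97.3%) and 88.0% of all genes had their promoter open in both. In that class the median value was 3.55 and 4.57 among members in replicates 1 and 2, against 2.47 and 3.54 over all genes. With a ratio below 0.4, 4 of 11 members (36.4%) had a peak, against 26.6% of all genes. The part of CpG content in the counts and levels was not tested beyond these classes.

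The HSP70 family held the most accessible promoter of the group. Hspa8, the constitutive cytosolic HSP70 that also uncoats clathrin (chr9:40800984-40810087, plus strand), had a peak of 7.92 in replicate 1 and 8.85 in replicate 2. This was percentile 99.7 of all genes with a promoter peak. The peak was 440 bp wide with the same ends in both replicates, was centred 16 bp after a start site, and held 8 footprints in each. Footprints are short stretches protected from cutting within open chromatin, deposited at a false discovery rate (FDR) threshold of 0.01. Hspa5, which encodes the ER chaperone BiP (chr2:34771970-34777547, plus strand), followed with 7.45 and 8.33. Its peaks were centred 40 and 50 bp before a start. Hspa9, the mitochondrial HSP70, had 5.54 and 5.93, from a peak 374 bp before its nearest start.

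The stress-inducible pair stood far below these constitutive relatives. Hspa1a (chr17:34969190-34972156, minus strand) had 1.12 in replicate 1 and 2.21 in replicate 2, and Hspa1b (chr17:34956436-34959238, minus strand) had 1.27 and 2.19. These were percentiles 24.6 and 26.9. The testis-expressed Hspa1l carried the same values as Hspa1a, because it starts 547 bp from Hspa1a in the opposite direction and shares its peak. The levels of the pair rest on sequence that is nearly repeated: 784 of the 1001 bp of each promoter (78.3%) align to the other copy at 98.5% identity. Reads from such stretches can be placed at either copy or dropped, and the sources used here do not give the placement rule. The part of this in the low values was not tested. The sequences around both start sites, from 150 bases before to 29 after, show how little separates them. Of 180 bases compared 2 differ (identity 98.9%), and those 2 are in capitals.
Hspa1a (chr17:34972127-34972306, minus strand): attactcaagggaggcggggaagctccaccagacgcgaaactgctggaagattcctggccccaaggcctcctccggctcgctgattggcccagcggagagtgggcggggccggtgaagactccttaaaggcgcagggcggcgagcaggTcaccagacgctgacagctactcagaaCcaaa
Hspa1b (chr17:34959209-34959388, minus strand): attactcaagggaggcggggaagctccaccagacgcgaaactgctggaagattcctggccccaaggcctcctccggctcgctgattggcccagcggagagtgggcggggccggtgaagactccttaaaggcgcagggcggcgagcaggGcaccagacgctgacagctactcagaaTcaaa
No exact 3-block element lay in either promoter window. Both hold the shorter form of the motif, GAANNTTC, 100 bp before the start. It lay in the peaks of both replicates at Hspa1a and in the peak of replicate 1 at Hspa1b.

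Among the other HSP70 genes, Hspa12b, a distant relative known from endothelial cells, had no promoter peak and no listed interval with an FDR under 0.05 at its promoter in either replicate. Hspa12a, the related gene expressed in neurons, had 3.30 in replicate 1 and 3.83 in replicate 2. In the HSP110 family Hsph1, a nucleotide exchange factor for HSP70, had 6.0 and 7.18 (percentile 96.9). All 3 HSP110 genes had peaks in both replicates, with values of 2.65 to 6.0 in replicate 1 and 3.48 to 7.18 in replicate 2.

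All 3 HSP90 genes were accessible in both replicates. Hsp90b1, which encodes the ER form GRP94 (chr10:86690209-86705509, minus strand), had 7.24 in replicate 1 and 6.73 in replicate 2, from peaks 480 and 500 bp wide just upstream of its start. Hsp90ab1, the constitutive cytosolic form, had 4.46 and 7.68, and Hsp90aa1, the inducible cytosolic form, had 3.80 and 4.70. Hsp90aa1 lay at percentile 78.0, so unlike Hspa1a it was in the upper range. Its strongest peak was not at the outermost start of the gene but at an internal start inside an annotated intron. Of its 4727 bp of promoter windows, 1402 bp (29.7%) have a copy of at least 98% identity elsewhere in the genome, as do 971 of 3360 bp (28.9%) for Hspa8. Copies of that kind were found for 16 members and not for the other 64.

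The mitochondrial chaperonin genes Hspd1 (HSP60) and Hspe1 (HSP10) share 1 bidirectional promoter, with starts 71 bp apart on chromosome 1. They therefore share a single peak, of 3.55 in replicate 1 and 4.52 in replicate 2. It was 420 and 460 bp wide and held 9 and 13 footprints. Both overlapping elements of the Hspd1 stretch lie inside it, 41 and 46 bp before the nearest Hspd1 start and 67 and 62 bp before that of Hspe1. Another coding gene started within 500 bp of the strongest peak in 24 members (30%), against 11.8% of all genes, so those values cannot be given to 1 gene alone. Among genes open in both replicates the shares were 34.8% of members and 19.7% of all. In 20 of the 24 the other gene was no member, and in the other 4 (Hspd1, Hspe1, Hspa1a and Hspa1l) it was. Examples of pairs with an outside gene are Dnajb1 with Tecr, Dnajb11 with Tbccd1, Dnajb4 with Fubp1, Hsf1 with Bop1 and Bag1 with Chmp5, whose starts face away from each other 113 to 222 bp apart.

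J proteins made up 45 members. Of the 13 DNAJB genes, 10 had promoter peaks in both replicates, with medians of 5.28 in replicate 1 and 6.85 in replicate 2, and the median member lay at percentile 94.4. By mean log2 value the ER J proteins came first, with 6.56 and 8.54 at Dnajb9 (ERdj4) and 6.18 and 8.39 at Dnajb11 (ERdj3). Dnajb1, the main inducible cytosolic HSP40, had 6.27 and 7.91, above Dnajb11 in replicate 1. Dnajb6, which keeps polyglutamine proteins from aggregating, had 4.76 and 6.69. All 4 of these lay above percentile 90. Of the 4 DNAJA genes, all with peaks in both replicates, Dnaja1, a farnesylated partner of cytosolic HSP70, had 3.38 and 4.89. The mitochondrial Dnaja3 had 3.06 and 4.69.

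Of the 28 DNAJC genes, 25 had peaks in both replicates, with medians of 2.65 and 3.99, near the centre of all genes (percentile 57.9). Dnajc3, an ER chaperone that restrains the kinase PERK, had the highest value, with 5.62 in replicate 1 and 8.27 in replicate 2. Dnajc17, a splicing-related J protein, came next by mean log2 value with 4.50 and 6.43, from a peak that lies by the start of Zfyve19. The synaptic members stood apart from each other. Dnajc5, the cysteine string protein of synaptic vesicles, had 4.12 and 5.44 (percentile 84.4). Dnajc6, the neuronal auxilin that brings HSP70 to clathrin coats, had 1.59 and 2.96 (percentile 38.0), from a peak at an internal start.

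Most of the J protein genes without a shared promoter peak are known from testis. Dnajb7, Dnajb8 and Dnajc5g had no promoter peak in either replicate, none in the longer deposited peak list, and no interval under an FDR of 0.05. Dnajb13, a sperm flagellum protein, had a peak in replicate 2 alone, of 0.580, and in replicate 1 its lowest listed FDR was 0.0109. The longer list held a peak of 0.363 at Dnajb13 in replicate 1. Dnajc5b, a testis relative of Dnajc5, had 0.963 in replicate 2 alone, with a lowest FDR of 0.00259 in replicate 1. There too the longer list held a replicate 1 peak, of 0.388. Dnajc22, whose fly relative acts in endocytosis, had 0.678 in replicate 2 alone and no listed interval in replicate 1. The 3 peaks of replicate 2 correspond to 65, 108 and 76 inferred reads. Their exact 95% Poisson intervals were 50.2 to 82.9, 88.6 to 130 and 59.9 to 95.1, and cover counting error only.

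Small HSPs were the family with the lowest share of accessible promoters, 4 of 8 (50%) in both replicates. The share of all autosomal protein-coding genes was 59.1%, so that of the 8 was near the background. Hspb1 (HSP27; chr5:135887919-135889563, plus strand) had no peak in either list of either replicate, and no interval under an FDR of 0.05 was listed in its promoter. A copy of 434 of its 1100 promoter bp (39.5%) at 99.8% identity lies on chromosome 13. Whether reads there were dropped was not tested. Hspb7, a heart small HSP, had no peak, with a lowest FDR of 0.0150 in replicate 1. Hspb8, the partner of Bag3 in clearing misfolded protein, had 0.492 in replicate 1 alone, which is 99 inferred reads (95% interval 80.5 to 120.5). Hspb9, a testis small HSP, had 1.19 in replicate 2 alone. In replicate 1 the longer list held a peak of 0.696 at Hspb9, with a lowest FDR of 0.00846. The highest of the family was Hspb6, known from muscle, with 3.51 and 5.42, and then Hspb11, an intraflagellar transport protein, with 2.78 and 3.2. The Hspb6 peak also lies by Proser3, whose nearest start is 89 bp from one of Hspb6. The Hspb11 peak also lies by Lrrc42, at a start distance of 61 bp. The peak of Hspb2, at 1.33 and 1.25, lay upstream, by Cryab, the alpha-B crystallin gene, which starts 416 bp from Hspb2 and had the same values.

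All 6 BAG genes had promoter peaks in both replicates, over a wide range. Bag1 was highest by mean log2 value, with 5.54 in replicate 1 and 5.14 in replicate 2, and Bag4 had 3.96 and 5.39, above Bag1 in replicate 2. Bag3, the stress-inducible cochaperone of selective autophagy (chr7:128523616-128546981, plus strand), had 1.01 and 1.19 (percentile 13.2), and Bag2, which inhibits the ubiquitin ligase CHIP, had 0.656 and 1.29. The transcription factors Hsf1 and Hsf2 were both accessible. Hsf1, the main regulator of the heat shock response, had 3.87 and 4.25, and Hsf2, its developmental relative, had 4.32 and 4.65.

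**Figure D2:**
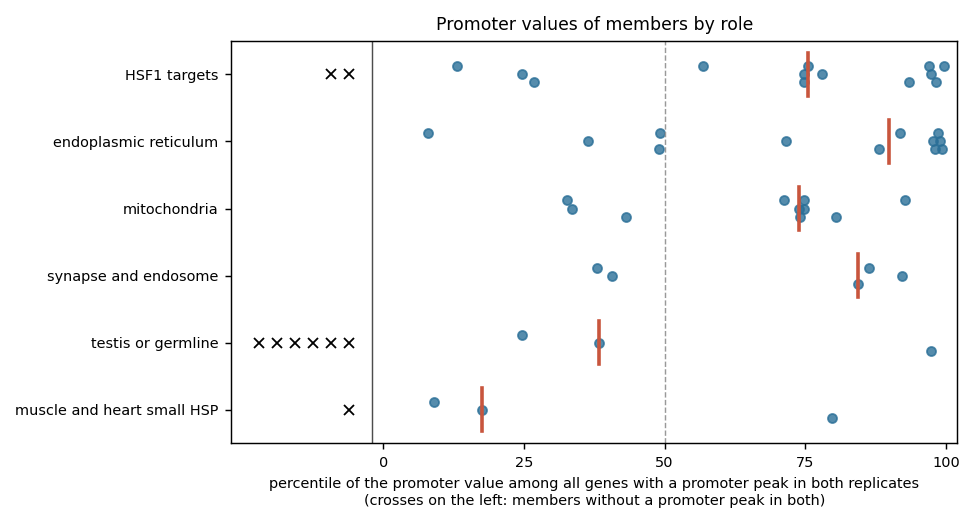
Percentile of each member's mean log2 promoter value among genes whose promoter was open in both replicates (x axis), by role; red bars are medians of those with a peak, and crosses on the left are members without one in both replicates. The ER list has its median at percentile 90.2 with all 12 members accessible, whereas 6 of 9 testis or germline members had no peak in both replicates.

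Grouped by where the proteins act, the ER list ranked highest. For the counts that follow, the share of all autosomal protein-coding genes with a promoter peak in both replicates was 59.1%. All 12 ER members had promoter peaks in both replicates, with medians of 4.70 in replicate 1 and 6.06 in replicate 2 (percentile 90.2). The lowest was Dnajb14, an ER membrane J protein, with 0.800 and 0.927. All 10 mitochondrial members were accessible (medians 3.29 and 4.52, percentile 74.0), as were all 5 members of the synapse and endosome list (4.12 and 5.27, percentile 84.4). Of 15 genes listed as HSF1 targets, which include the mainly constitutive Hspa8 and Hsp90ab1, 13 had a peak in both replicates, with medians of 3.55 and 4.70 (percentile 75.6). Their range was wide, from Bag3 at 1.01 and 1.19 to Hspa8 at 7.92 and 8.85. Of 9 members known from testis or germline, 3 had one (33.3%). They were Hspa2, Hspa1l and Dnajb3. Hspa2, the testis-enriched HSP70 that is also made in brain, had 6.27 and 7.12 (percentile 97.3). The other two were lower, with 1.12 and 2.21 for Hspa1l and 2.05 and 2.35 for Dnajb3. Of 4 small HSPs of muscle and heart, 3 had a peak. Those of Hspb2 and Hspb6 also lie within 500 bp of a start of another gene.

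**Figure D3:**
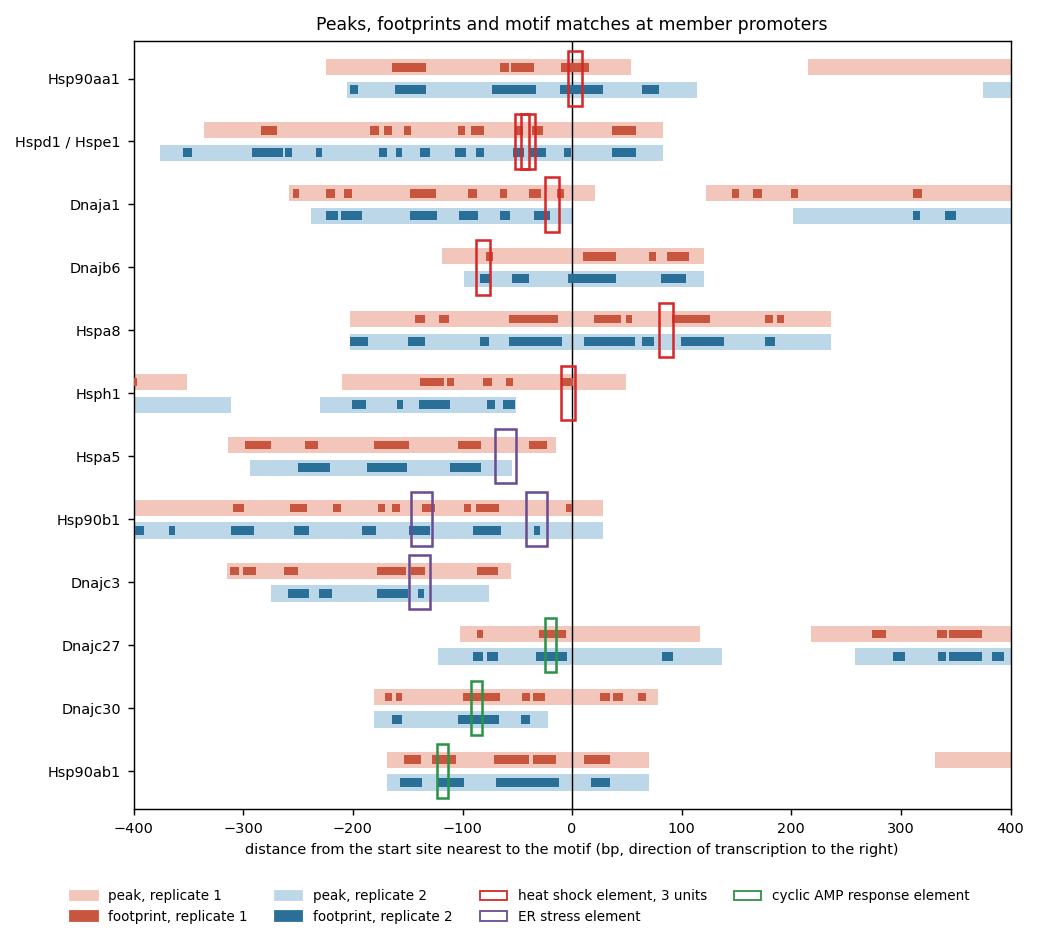
Peaks (pale bars), footprints inside them (dark bars) and motif matches (open boxes, drawn at least 10 bp wide) around the start site nearest to the motif, in bp, for 12 member promoters; each row has replicate 1 above replicate 2, and Hspd1 / Hspe1 is drawn along Hspd1. The heat shock element of Hsp90aa1 lies wholly under a footprint in both replicates, which is true of no other heat shock element drawn, and the cyclic AMP response elements of Dnajc27 and Dnajc30 are wholly covered in both.

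Heat shock elements of 3 blocks were found in the promoter windows of 12 members (15%), against 4.44% of all genes. Per start-site window of 1001 bp, 11.1% of 386 member windows and 1.76% of all 90310 windows held a match. Windows of neighbouring starts overlap, so 1 match can count in several. The 43 member windows with a match drew on 16 matches. Members whose matches all lay outside peaks were Bag2, Dnajb5, Dnajc1, Hsp90ab1 and Hsp90b1. In the peaks of both replicates the count was 6 members of the 40 genes in the genome so called. Another 4 were partner genes outside the group, namely the cochaperones Stip1, Chordc1 and St13 and the TRiC subunit Cct4. The other 30 genes include Gm5129, which starts 4 bp from Dnajb6 on the opposite strand and shares its peak. With the shorter form GAANNTTC, 12 members (15%) had a match in a promoter peak of both replicates, against 2.69% of all genes. Those added were Bag3, Dnaja4, Dnajb1, Hsp90ab1, Hspa1a and Hspa1l. A match is a run of letters in the reference and shows no binding.

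Footprints covered these elements to different degrees. Only Hsp90aa1 had an element wholly inside a footprint in both replicates, which was true of 1 member (1.25%) against 0.0192% of all genes (4 genes). Its footprints were 26 bp wide in replicate 1 and 40 bp in replicate 2 around the 13 bp element, 2 bp after a start site. At Dnajb6 footprints covered 4 of the 13 bases in replicate 1 and 9 in replicate 2, and at Dnaja1 they covered 2 and 6. The Dnaja1 element lies in a stretch of 114 bp that has a copy of 99.1% identity on chromosome 7. The part of that copy in the peak and footprints was not tested. In the Hspd1 and Hspe1 promoter a footprint covered 7 and 9 bases of one of the pair of matches. At Hspa8 a footprint touched the element by 1 base in replicate 1 and none touched it in replicate 2. At Hsph1, 12 of 13 bases were covered in replicate 1, while in replicate 2 the element lay outside the peak. Among members, 1 of 9 3-block matches in promoter peaks (11.1%) lay inside a footprint in replicate 1 and 1 of 8 (12.5%) in replicate 2. These totals count the pair of matches shared by Hspd1 and Hspe1 for each of the genes, so the distinct elements are fewer. Across all genes the share was 13.3% in each replicate (8 of 60), so per match the members were near the background.

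The ER stress element (CCAAT and CCACG with 9 bases between) was found in the promoter windows of 3 members, Hspa5, Hsp90b1 and Dnajc3 (3.75%), against 0.245% of all genes. All 3 encode ER chaperones and all 3 were in the top 5% of promoter values. The sequences are shown from GRCm38.p6 along the gene strand, with the motif blocks in capitals. In Hsp90b1 the second match reads on the opposite strand.
Hspa5 (chr2:34772019-34772048, plus strand): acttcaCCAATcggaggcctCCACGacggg
Hsp90b1 (chr10:86705513-86705676, minus strand): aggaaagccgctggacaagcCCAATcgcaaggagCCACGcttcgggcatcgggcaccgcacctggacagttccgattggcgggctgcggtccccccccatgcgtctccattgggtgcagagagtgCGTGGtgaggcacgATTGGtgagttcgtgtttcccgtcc
Dnajc3 (chr14:118937807-118937865, plus strand): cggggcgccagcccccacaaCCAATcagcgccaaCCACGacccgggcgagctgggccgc
In Hsp90b1 the matches were centred 138 and 33 bp before a start, in Dnajc3 140 bp before, and in Hspa5 61 bp before the nearest annotated start. The matches of Hsp90b1 and Dnajc3 lay in the peaks of both replicates. That of Hspa5 lay in the peak of replicate 1, and the replicate 2 peak ended within it. None lay wholly inside a footprint. The closest was the upstream match of Hsp90b1 in replicate 2, where a footprint of 20 bp covered 18 of 19 bases.

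The cyclic AMP response element (TGACGTCA, bound by CREB and ATF factors) lay inside a footprint in both replicates in 2 members (2.50%), against 1.93% of all genes, so the share was near that of the genes at large. They were Dnajc27, a small GTPase with a J domain, and Dnajc30, a mitochondrial J protein. At Dnajc27 the element lay in another peak than the strongest one. At Hsp90ab1 a footprint held the element in replicate 1 and covered 7 of its 8 bases in replicate 2. The capitals mark the element.
Dnajc27 (chr12:4082518-4082605, plus strand): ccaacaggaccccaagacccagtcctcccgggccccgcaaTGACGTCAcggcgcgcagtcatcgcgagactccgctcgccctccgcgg
Dnajc30 (chr5:135064099-135064128, plus strand): gcgcgacgcttTGACGTCAtcaatctgcgc
Hsp90ab1 (chr17:45573347-45573434, minus strand): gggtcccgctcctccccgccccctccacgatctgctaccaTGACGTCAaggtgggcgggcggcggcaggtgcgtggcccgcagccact
Footprints were 25 and 29 bp wide at Dnajc27 and 35 and 38 bp at Dnajc30. Across all genes, 74.8% of these elements in promoter peaks lay inside a footprint in replicate 1 and 81.6% in replicate 2. Among general promoter motifs, CCAAT lay in a promoter peak of both replicates in 41.2% of members, against 22.3% of all genes, and the GC box GGGCGG in 61.2%, against 40.1%. Among genes with a promoter peak in both, the shares were 47.8% of 69 members against 37.8% of all genes for CCAAT, and 71% against 67.8% for the GC box.

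Footprints were present in the promoter peaks of both replicates in 69 members (86.2%), against 57.8% of all genes. That is every member with a peak, and 97.9% of all genes with a peak in both also held one in each. The members had a median of 6 footprints in replicate 1 and 5 in replicate 2, against 5 in each over all genes. Per kb of peak they had 13.8 and 13.6, against 12.9 and 13.

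Distal regions were peaks shared by both replicates with no base within 500 bp of any gene's start. Each was given to the nearest protein-coding start within 100 kb, which is a position and not a link by function. At least 1 was found for 45 members (56.2%), against 53.9% of all genes, so the share was near the background. In all 101 regions were found, a mean of 1.26 per member against 1.68 per gene. They lay inside the gene in 37 cases, upstream in 31 and downstream in 33. Their median value was 0.924 in replicate 1 and 1.34 in replicate 2, against 0.795 and 1.16 for the regions of all genes. Hspa12a and Hspa9 had the most, with 5 each, and Bag3, Dnajb9, Dnajc1 and Dnajc15 had 4 each. The 5 of Hspa12a lay in its introns and those of Hspa9 lay 18474 to 72764 bp upstream. The 4 of Bag3 included 2 in introns, with values of 0.755 to 1.64 in replicate 1 and 0.687 to 1.60 in replicate 2 over all 4. The strongest of them, downstream of the gene, had 1.64 and 1.60, against 1.01 and 1.19 at the Bag3 promoter. The distal region of highest mean log2 value among members lay 2734 bp upstream of Dnajb5, a J protein gene, with 4.07 and 3.25.

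**Figure D4:**
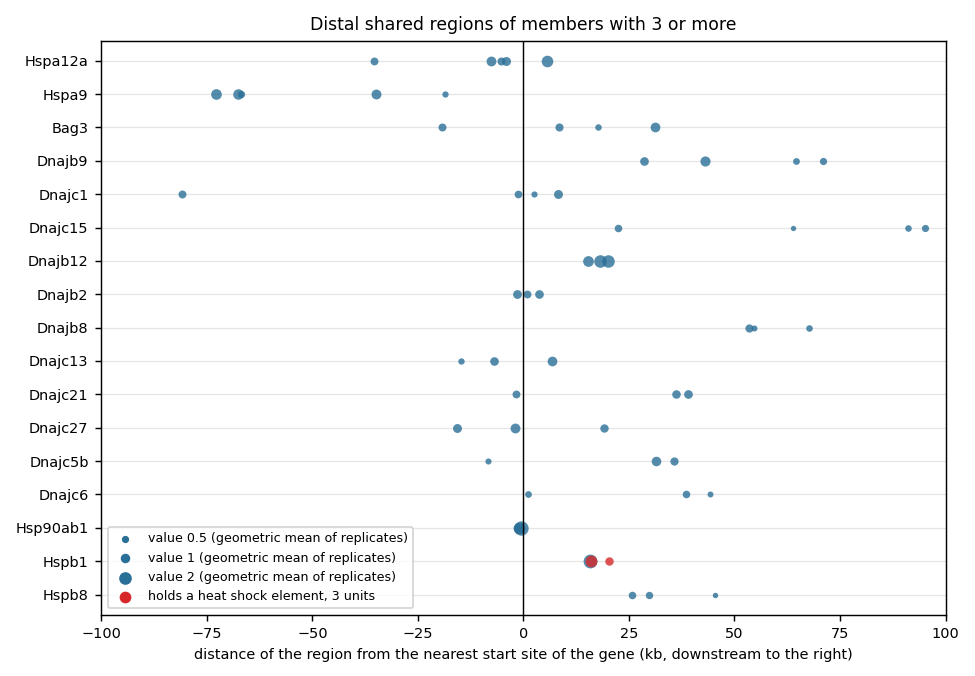
Distance of distal shared regions from the nearest start of the gene (x axis, kb, downstream to the right) for the 17 members with 3 or more; dot area grows with the geometric mean of the replicates' values, and red dots hold a 3-block heat shock element. The 3 regions of Hspb1 sit together downstream, 15603 to 20223 bp from the start, and the 2 red dots of the plot are both there.

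Hspb1, without a promoter peak, had 3 distal regions downstream. The nearest had 3.16 in replicate 1 and 3.33 in replicate 2, the next had 1.37 and 4.28, and the farthest had 1.18 and 1.23. The farther 2 each held a 3-block heat shock element. No other region of a member did, so the count was 2 of 101 (1.98%), against 0.412% of the 34938 distal regions of all autosomal genes. The farthest lies within Ywhag, which encodes a 14-3-3 protein, so assignment to Hspb1 rests on the nearest start alone. The elements are printed along the strand of Hspb1, from GRCm38.p6, with the blocks and the bases between them in capitals.
Hspb1 (chr5:135904114-135904206, plus strand): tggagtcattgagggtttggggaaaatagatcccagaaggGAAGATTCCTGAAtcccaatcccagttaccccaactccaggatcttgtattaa
Hspb1 (chr5:135908454-135908483, plus strand): tgactcacaTTCATGAATATTCcatcactg
The near edges of the 3 regions lay 15603, 15943 and 20223 bp from the Hspb1 start.

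**Figure D5:**
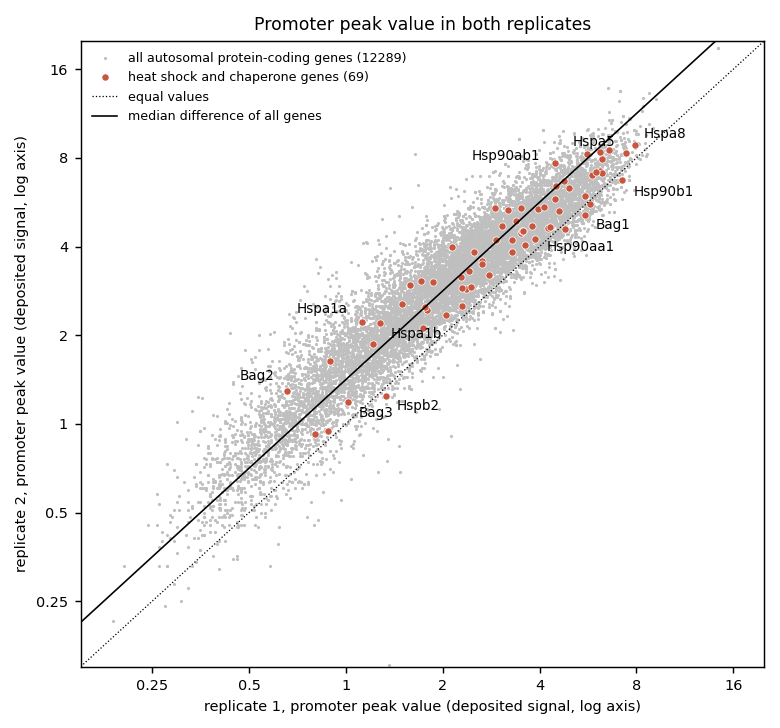
Promoter value in replicate 1 (x axis) against replicate 2 (y axis), both the deposited signal on log scales, for the 69 members with a peak in both (red) and all 12289 such genes (grey). The solid line is the median difference of all genes, itself toward replicate 2, and the dotted line marks equal values. Of the 69 members 64 are higher in replicate 2, and more members lie below the solid line than above it.

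Between the replicates, member promoters lay slightly toward replicate 1 once the general shift was removed. Before centring, 64 of the 69 members were higher in replicate 2, the direction of the shift over all genes (median -0.50). The share of all genes higher in replicate 2 was not counted. After subtracting the median log2 difference of all genes, the members had a median of 0.14 (replicate 1 minus replicate 2; SD across members 0.28). Of the 69, 48 (69.6%) were above 0, against 50% of all genes by construction. Level moved with this difference: in the top 25% of genes by value the median was 0.21 among 30 members and 0.17 over all genes, and in the lowest 25% it was -0.13 among 9 members and -0.10 over all genes. Between percentiles 50 and 75 it was 0.13 among 16 members and -0.001 over all genes, and between 25 and 50 it was 0.04 among 14 members and -0.08 over all genes, so there the members lay toward replicate 1 of genes of like level. Its part in the members' median was not tested further. The largest centred differences toward replicate 1 were 0.61 at Bag1, 0.61 at Hsp90b1 and 0.59 at Hspb2. The largest toward replicate 2 were -0.48 at Bag2 and -0.48 at the peak shared by Hspa1a and Hspa1l. The counting error of a log2 difference at the inferred depth was 0.07 at Bag1 and Hsp90b1, 0.15 at Hspb2, 0.17 at Bag2 and 0.13 at Hspa1a. With 1 library on each side, these differences have no replicate check. The strongest peaks of the replicates overlapped in 68 of the 69 members, the exception being Bag6.

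Partner genes outside the group gave a similar picture. Here too the share of all autosomal protein-coding genes with a promoter peak in both replicates was 59.1%. All 11 HSP90 cochaperones, 8 HSP70 cochaperones and 7 TRiC chaperonin subunits examined had promoter peaks in both replicates. So did the 5 prefoldins, 3 ER lectin chaperones and 3 mitochondrial partners examined. The TRiC subunit Cct6a and the prefoldin Vbp1 were not matched among the autosomal protein-coding genes and were not examined. Stip1, which joins HSP70 to HSP90, had the highest value among the HSP90 cochaperones in either replicate, 7.89 and 6.22. The ER lectin chaperone Calr had 6.92 and 7.70, near the level of Hsp90b1. Prefoldin promoters had medians of 1.89 and 3.16 (percentile 43.6) and all 5 had negative centred differences, with a median of -0.27. Cryaa, the lens crystallin, and Hsf5, a testis factor, had no promoter peak.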

How the data were processed

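DNase-seq of 2 replicates was analysed from the deposited peak, footprint and FDR files on mm10. The authors deposited a signal value for each peak. They deposited footprints at an FDR threshold of 0.01, and lists of positions with an FDR (adjusted p-value) below 0.05. Aligner, peak caller and normalization: not given in the sources used here. Reads of the B6 and CAST hybrid are on mm10 coordinates. Nothing says that the replicates came from separate animals, so their spread may be technical. Intervals cover counting error only.

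The shorter of 2 deposited peak lists was used (86601 peaks in replicate 1 and 88482 in replicate 2). Peaks overlapping a window of 500 bp to each side of a GENCODE M21 start site by at least 1 bp were promoter peaks, and the strongest gave the value. Footprints had to lie wholly in a peak. Regions with no base in any such window, shared by both replicates and within 100 kb of a coding start, were distal. Motifs were exact matches in GRCm38.p6. Copies were blastn 2.17.0 alignments of at least 100 bp and 98% identity. Percentiles are ranks of mean log2 value among genes with a promoter peak in both replicates. No test was run, since there was 1 group. The alternatives tried were the longer peak list, windows of 100 and 2000 bp, the stronger 50% of peaks, overlap of at least 50%, a reach of 50 kb, looser motif and footprint rules, either replicate alone and the GENCODE basic start sites. Scripts (Python 3.11.15, numpy 2.4.6, pysam 0.24.0, samtools 1.23.1, matplotlib 3.10.9) were tested on simulated data.

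The members and lists were chosen with earlier results of these data known. Genes named were a fixed core, the highest of each family, those without a peak in 1 or both replicates, those with the largest replicate differences, the most distal regions or an open heat shock element, and those sharing a promoter with another member. Other genes named with values, among them Hspa2, Dnajb3, Dnajb5, Dnajb14, Dnajc27 and Dnajc30, were chosen after their values were seen.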

Additional observations from a re-analysis of the deposited data

How the results depend on the processing

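Of 48 values recomputed under other settings, 45 kept within the spread or within 1.5 times of the reported value and 3 moved. For the promoter value and footprint medians the spread was the SD of the 2 replicate medians. Leaving out 1 replicate could hardly exceed it, so those settings could not show a move. For the centred difference the spread was the SD across members, 0.28, which is wider than the difference of 0.14 itself. The count kept says little about these results. Counting every footprint whose midpoint lay in a promoter window gave a median of 7.5 per member, against 5.5 (all genes 6 and 5). The shorter motif GAANNTTC in an open promoter was found in 12 members, against 6 with the 3-block form (all genes 559 and 40). Elements touching a footprint by at least 1 bp in both replicates numbered 5 members, against 1 wholly inside (all genes 22 and 4). Each follows from the wider definition. The number of members with an open promoter was 66 to 73 over all alternatives (69 reported). Over all genes it was 11062 to 13240 (12289 reported). The number of members with a distal region was 34 to 55 (45 reported), and of all genes 7536 to 13300 (11218 reported). With either replicate alone, open promoters numbered 70 to 73 (all genes 12609 to 12810). The median promoter value was 3.30 to 4.23 (all genes 2.18 to 3.16). Members with a distal region then numbered 48 to 52 (all genes 12130 to 12806), and the median footprint count was 5 to 6 (all genes 5). Members with an open 3-block element numbered 6 to 7 (all genes 52 to 55). The element inside a footprint stayed at 1 member (all genes 6 to 8). The centred replicate difference was 0.12 to 0.15. The GENCODE basic start sites were added after seeing the data and gave 68 open promoters (all genes 11857). No paired analysis was possible because there was 1 group. Depth differed between the libraries (201 M and 112 M inferred reads). Of the members with a peak in 1 replicate alone, 4 had it in replicate 2, of lower inferred depth, and 1 in replicate 1. Over all autosomal protein-coding genes the counts leaned the same way, with 521 in replicate 2 alone and 320 in replicate 1 alone. A peak found in 1 replicate alone is not shown to be absent in the other.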
